A study of Mus musculus with 4 samples.

Results

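The mouse embryonic stem cell lines Dnm1l-/- and Fis1-/-, each lacking a gene of mitochondrial fission by its label, were set directly against each other, without the control line as a reference. They are 2 of 4 RNA-seq libraries, the others being the control line E14Tg2a and Mff-/-. All 4 lines are embryonic stem cells of strain 129/Ola between passages 30 and 35, grown in serum medium with leukemia inhibitory factor on a layer of mouse embryonic fibroblasts, so feeder RNA can be present in every library. The labels give 1 library per genotype and do not say how or in which line the knockouts were made, or whether a line is 1 clone. A difference between genotypes therefore cannot be told apart from a difference between clones, cultures or library preparations. No difference below has a replicate check, and none was given a p-value.

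A gene was compared when the 4 libraries averaged at least 1 FPKM, which left 11051 of 24115 genes, 362 of them with noncoding transcripts only. FPKM is fragments per kilobase of transcript scaled to a fixed number of mapped fragments. The difference reported for a gene is log2(FPKM + 1) in Dnm1l-/- minus log2(FPKM + 1) in Fis1-/-, called the log2 difference below. It is positive where Dnm1l-/- was higher, and it understates the change of genes of low level. A gene was counted as 2-fold apart when this difference reached 1 in either direction. From the spacing of the lowest values, the Dnm1l-/- library held about 3.52e+07 fragments and the Fis1-/- library about 3.60e+07, so that 1 FPKM on a transcript of 2 kb stood for 70.4 and 72.0 fragments.

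Mitochondria divide when the dynamin-related GTPase Drp1, the product of Dnm1l, is recruited from the cytosol to the outer membrane and constricts it. Mff and Fis1 are tail-anchored proteins of that membrane. Mff is a main receptor for Drp1 in mammalian cells, and Fis1 has been given roles in recruiting Drp1, in mitophagy and in the control of fusion. Embryonic stem cells carry small, largely fragmented mitochondria and can give rise to rare cells that resemble the 2-cell embryo or the trophectoderm.

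The transcriptomes of Dnm1l-/- and Fis1-/- lay close together. The median log2 difference was -0.00, its quartiles were -0.11 and 0.11, and 96.0% of genes lay within 0.5 of 0. Dnm1l-/- exceeded Fis1-/- by 2-fold or more in 39 (0.353%) of the 11051 genes, and the reverse held for 28 (0.253%), 67 (0.606%) in all. Entries shorter than 250 bases, which are nearly all small nucleolar RNAs and microRNA hairpins, supplied 27 of these 67 calls and are described last. Among the 10991 longer genes, 25 (0.227%) were 2-fold higher in Dnm1l-/- and 15 (0.136%) in Fis1-/-, or 40 (0.364%) together. For the same 10991 genes the other 5 pairs of libraries differed more. The share 2-fold apart was 3.77% (414 genes) between control and Fis1-/-, 4.67% (513) between control and Dnm1l-/-, and 5.59% (614) between control and Mff-/-. It was 12.5% (1369) between Dnm1l-/- and Mff-/- and 13% (1428) between Fis1-/- and Mff-/-.

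In Y-linked genes Dnm1l-/- and Fis1-/- were alike too, and here control went with Mff-/-, unlike in the pair counts. Eif2s3y stood at 0.136 FPKM in Dnm1l-/- and 0.0834 in Fis1-/-, against 33.0 in control and 46.8 in Mff-/-. Ddx3y stood at 0.0121 and 0.0178 FPKM, against 3.59 and 4.17, and Uba1y was listed at 0 in both, against 1.07 and 1.15. Dnm1l-/- and Fis1-/- thus shared near-absent Y-linked RNA, and its part in their closeness to each other was not tested.

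**Figure D1:**
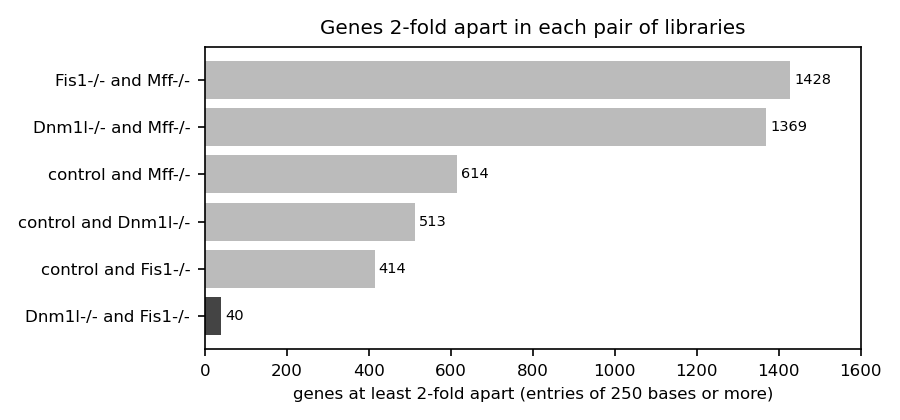
Number of genes, of 10991, at least 2-fold apart in each pair of the 4 libraries, with 1 library per genotype. Dnm1l-/- against Fis1-/- has the shortest bar, at 40 genes.

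**Figure D2:**
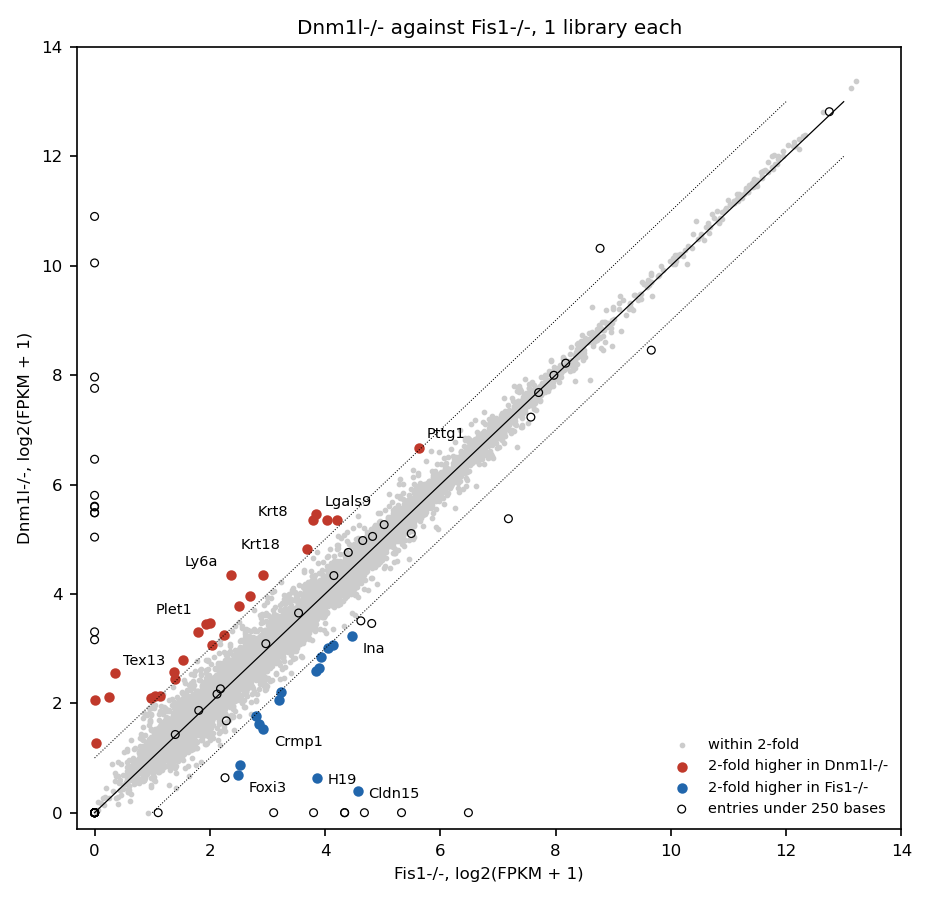
Level of each compared gene in Dnm1l-/- against its level in Fis1-/-, both in log2(FPKM + 1), with genes 2-fold apart coloured by direction and the entries under 250 bases marked separately. Most genes lie near the diagonal, and Cldn15 and H19 lie farthest out on the Fis1-/- side among the longer genes.

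The targeted genes came first as a check of the labels. Dnm1l, summed over its transcripts, stood at 22.9 FPKM in Dnm1l-/-, 35.5 in Fis1-/-, 35.0 in control and 43.3 in Mff-/-, a log2 difference of -0.61. Fis1 stood at 96.4 FPKM in Dnm1l-/-, 56.2 in Fis1-/-, 103 in control and 110 in Mff-/- (0.77). Each targeted gene was thus lowest in the library labelled with its knockout, but RNA of both was still present, and the 2-fold mark was not reached. The 2 Fis1 transcripts differed in direction. The transcript of 786 bases stood at 80.4 FPKM in Dnm1l-/- and 19.5 in Fis1-/- (1.99), whereas that of 950 bases stood at 16.0 and 36.8 (-1.15).

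Cldn15 and H19 stood out on the Fis1-/- side. Cldn15 encodes claudin 15, a tight junction protein that forms a cation channel in the intestine. It stood at 0.308 FPKM in Dnm1l-/-, 22.7 in Fis1-/-, 0.926 in control and 0.112 in Mff-/-, a log2 difference of -4.18. The gene occupies mm10 chromosome 5, 136967869 to 136975845, and begins just past the end of Fis1 (136953275 to 136966234), so the difference lies beside the targeted locus. H19, an imprinted long noncoding RNA expressed from the maternal allele, stood at 0.556 FPKM in Dnm1l-/-, 13.5 in Fis1-/-, 0.874 in control and 1.01 in Mff-/- (-3.22, mm10 chromosome 7, 142575532 to 142578146). In both genes the Fis1-/- library was high and the other 3 were low. H19 shares an imprinted domain with the growth factor gene Igf2, which stood at 1.70 FPKM in Dnm1l-/- and 1.58 in Fis1-/- (0.06).

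Among the genes higher in Dnm1l-/- were a keratin pair and a trophoblast surface protein. Krt8 and Krt18 encode the keratin pair that forms intermediate filaments of simple epithelia, trophectoderm included, and lie near each other on mm10 chromosome 15 (101996711 to 102004342 and 102028216 to 102032026). Krt8 stood at 39.9 FPKM in Dnm1l-/-, 12.9 in Fis1-/-, 9.73 in control and 11.3 in Mff-/- (log2 difference 1.56). Krt18 stood at 27.1 FPKM in Dnm1l-/-, 11.9 in Fis1-/-, 8.59 in control and 14.9 in Mff-/- (1.13). For both keratins the Dnm1l-/- library was the high one, and the other 3 lay between 8.59 and 14.9 FPKM. Plet1, a surface protein of trophoblast progenitors, stood at 9.93 FPKM in Dnm1l-/-, 2.82 in Fis1-/-, 2.24 in control and 1.39 in Mff-/- (1.52). It too had its high value in Dnm1l-/- alone.

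Promoter sequences of 6 genes, 3 of this group with Cldn15 and 2 neuronal genes described below, are given to show CpG-poor and CpG-rich examples of a window whose CpG counts are compared further on. Each is the 250 bases before the annotated start nearest to that of the most abundant transcript, from RefSeq on GRCm38.p6, written 5′ to 3′ on the strand of the gene with every CpG in capitals. The windows are chr15:102004343-102004592 (minus strand) for Krt8, chr15:102027966-102028215 (plus) for Krt18, chr9:50494275-50494524 (plus) for Plet1, chr5:37245514-37245763 (plus) for Crmp1, chr19:47014431-47014680 (plus) for Ina and chr5:136967619-136967868 (plus) for Cldn15. They hold 3, 12, 3, 16, 25 and 7 CpG in that order.
Krt8: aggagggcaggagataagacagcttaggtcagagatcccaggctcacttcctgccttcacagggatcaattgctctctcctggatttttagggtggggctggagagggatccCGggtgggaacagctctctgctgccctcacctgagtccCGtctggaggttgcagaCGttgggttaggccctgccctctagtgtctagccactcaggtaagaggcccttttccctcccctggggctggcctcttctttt
Krt18: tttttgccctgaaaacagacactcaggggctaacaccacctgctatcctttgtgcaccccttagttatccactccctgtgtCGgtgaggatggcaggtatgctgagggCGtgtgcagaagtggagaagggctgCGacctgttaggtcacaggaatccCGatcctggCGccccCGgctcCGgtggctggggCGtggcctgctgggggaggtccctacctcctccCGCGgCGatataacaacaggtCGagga
Plet1: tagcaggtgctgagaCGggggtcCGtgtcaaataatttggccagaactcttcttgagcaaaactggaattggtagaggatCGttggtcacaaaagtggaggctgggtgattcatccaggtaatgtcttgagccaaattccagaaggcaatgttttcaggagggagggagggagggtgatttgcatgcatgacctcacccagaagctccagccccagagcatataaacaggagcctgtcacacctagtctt
Crmp1: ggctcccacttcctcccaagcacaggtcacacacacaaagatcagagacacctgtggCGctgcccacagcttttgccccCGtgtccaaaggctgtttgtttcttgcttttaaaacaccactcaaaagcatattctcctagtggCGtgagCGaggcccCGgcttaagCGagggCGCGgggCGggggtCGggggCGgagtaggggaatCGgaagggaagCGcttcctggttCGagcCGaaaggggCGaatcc
Ina: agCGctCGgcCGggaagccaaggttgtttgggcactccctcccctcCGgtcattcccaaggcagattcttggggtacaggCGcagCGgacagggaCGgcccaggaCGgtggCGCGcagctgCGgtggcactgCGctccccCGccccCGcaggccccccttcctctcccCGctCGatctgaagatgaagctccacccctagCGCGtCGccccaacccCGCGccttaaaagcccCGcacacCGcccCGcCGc
Cldn15: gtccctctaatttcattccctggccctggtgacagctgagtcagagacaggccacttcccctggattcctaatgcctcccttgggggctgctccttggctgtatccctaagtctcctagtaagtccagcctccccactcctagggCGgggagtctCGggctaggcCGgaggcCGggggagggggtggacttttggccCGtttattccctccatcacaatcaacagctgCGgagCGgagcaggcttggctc

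A list of keratins and other epithelial genes did not lean to Dnm1l-/- as a whole. Of its 19 genes, 17 were compared and 3 were 2-fold higher in Dnm1l-/-, against 0.353% of all genes. Yet 9 of the 17 lay above 0 and 8 below, with a median of 0.03. The junction gene Cldn6 stood at 3.99 FPKM in Dnm1l-/- and 6.63 in Fis1-/- (-0.61), the epithelial splicing regulator Esrp1 at 2.03 and 3.13 (-0.45), and Epcam at 37.5 and 45.6 (-0.28). On a list of 20 trophoblast genes, 12 were compared. Of these, 3 were 2-fold higher in Dnm1l-/- (Krt8, Krt18 and Plet1) and none in Fis1-/-, against 0.353% and 0.253% of all genes. The median log2 difference was 0.48 against -0.00 over all genes, and 0.40 without a filter on level. Tead4, a transcription factor of the trophectoderm, stood at 12.8 FPKM in Dnm1l-/-, 6.70 in Fis1-/-, 3.67 in control and 2.82 in Mff-/- (0.85). Ets2 stood at 14.5, 9.17, 5.87 and 5.60 FPKM in that order (0.61). Both regulators were highest in Dnm1l-/- and next highest in Fis1-/-. The factors that define the lineage ranged from 0 to clearly detected. Cdx2 stood at 0.0828 FPKM in Dnm1l-/- and 0 in Fis1-/-, Elf5 was listed at 0 in both, and Gata3 stood at 1.03 and 0.524. Eomes did not separate the lines, at 3.68 and 3.66 FPKM, and Tfap2c stood at 16.7 and 18.1. In bulk RNA, more cells of a type and more RNA per cell cannot be told apart, which holds for every group below.

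Oasl1 and Ube2l6, of the interferon response, and the autophagy receptor gene Calcoco2 were also among the 25. Oasl1, an inhibitor of Irf7 translation, stood at 39.9 FPKM in Dnm1l-/-, 17.6 in Fis1-/-, 4.38 in control and 2.52 in Mff-/- (1.14). Ube2l6, the conjugating enzyme for the ubiquitin-like protein Isg15, stood at 8.86, 2.49, 2.27 and 3.92 FPKM in that order (1.5). Calcoco2, which encodes the autophagy receptor NDP52, stood at 39.8, 15.4, 6.88 and 15.1 FPKM (1.32). In each the Dnm1l-/- library held the highest value of the 4. Of a list of 38 interferon response genes, 32 were compared, 25 of them above 0, with a median of 0.16. Oasl1 alone was 2-fold apart, against 0.606% of all genes in either direction. Isg15 itself stood at 24.7 FPKM in Dnm1l-/-, 15.4 in Fis1-/-, 18.4 in control and 36.4 in Mff-/- (0.65), and Ifitm3 at 606, 398, 461 and 682 (0.60). Unlike Oasl1, both were highest in Mff-/-. Of 25 mitophagy and autophagy genes, 23 were compared, and Calcoco2 alone was 2-fold apart, against the same 0.606%. Of the 23, 8 lay above 0 and 15 below, and the median was -0.07.

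Genes of the 2-cell-like state, in which stem cells transiently switch on genes of the first embryonic genome activation, were higher in Dnm1l-/- by smaller steps. Of 27 listed, 16 were compared, and 15 of the 16 had a positive difference, with a median of 0.65. Only Tcstv3 was 2-fold apart, against 0.606% of all genes in either direction. It stood at 7.35 FPKM in Dnm1l-/-, 3.08 in Fis1-/-, 0.403 in control and 2.01 in Mff-/- (1.03). Zscan4c, a member of the cluster that marks the state and acts in telomere maintenance, stood at 20.8, 11.4, 1.01 and 6.53 FPKM in that order (0.81), and Zscan4f at 27.3, 15.9, 1.3 and 9.28 (0.74). In these 3 genes the libraries ran in the same order, with control lowest and Dnm1l-/- highest. Dux, the upstream activator, was below the level filter at 0.735 FPKM in Dnm1l-/- and 0.546 in Fis1-/-. Members of the Zscan4 and Tcstv families are near-identical copies, so the authors' counting may have divided reads among them. Those 16 genes passed a filter that includes the libraries in which they were high. Without any filter the median over all 27 was 0.54, and 25 lay above 0.

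The other genes higher in Dnm1l-/- had varied functions. Lgals9, which encodes the immune regulator galectin 9, differed the other way round, since its outlying library was Fis1-/-. It stood at 43.0 FPKM in Dnm1l-/-, 13.4 in Fis1-/-, 36.6 in control and 41.4 in Mff-/- (1.61). Ly6a, the surface antigen Sca-1, stood at 19.4, 4.13, 7.26 and 11.6 FPKM in that order (1.99). Pttg1, which encodes securin, the inhibitor of separase in mitosis, stood at 100.2, 48.3, 60.4 and 113 FPKM (1.04), and was the most abundant of the 40 genes. For Ly6a and Pttg1 the control lay between the 2 knockouts. Ptges, the prostaglandin E synthase, stood at 14.6 FPKM in Dnm1l-/-, 5.49 in Fis1-/-, 1.54 in control and 2.90 in Mff-/- (1.26). Inhbb, which encodes the beta B subunit of activin and inhibin, stood at 8.54, 3.75, 2.40 and 5.84 FPKM (1.01). Hmga2, a chromatin architectural protein, stood at 3.41, 1.19, 3.93 and 3.96 FPKM (1.01). Of these 3, Ptges and Inhbb were highest in Dnm1l-/-, and Hmga2 was lowest in Fis1-/- and level in the rest.

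Several genes of this direction were nearly silent in control and Mff-/-. Tex13, an X-linked gene expressed in testis, stood at 4.86 FPKM in Dnm1l-/-, 0.274 in Fis1-/-, 0.0655 in control and 0.0693 in Mff-/-, and its log2 difference of 2.20 was the largest of the 25. Sult5a1, a sulfotransferase family member, stood at 10.01, 2.99, 0.442 and 0.440 FPKM in that order (1.47). C1qtnf9, a secreted relative of complement C1q and tumour necrosis factor, stood at 12.7, 4.68, 0.147 and 0.140 FPKM (1.27). Tex13 was detected above 1 FPKM in Dnm1l-/- only, while the other 2 were also above it in Fis1-/-. The remaining genes of this direction were of low level. Trpm1, a cation channel of the TRP family, Pknox2, a homeobox factor, Apobec2, of the cytidine deaminase family, and AI661453 had Dnm1l-/- levels between 3.26 and 5.97 FPKM and log2 differences of 1.11, 1.07, 1.27 and 1.04.

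A few imprinted genes were 2-fold apart, in both directions. Imprinted genes are expressed from 1 parental allele under control of DNA methylation that is known to drift in cultured stem cells. Of 42 listed, 31 were compared, 1 was 2-fold higher in Dnm1l-/- (Dio3) and 2 in Fis1-/- (H19 and Nnat), against 0.353% and 0.253% of all genes, and the median was -0.07. With a pseudocount of 2 FPKM the 2 became 1, H19. Dio3, the deiodinase that inactivates thyroid hormone, stood at 19.2 FPKM in Dnm1l-/-, 6.55 in Fis1-/-, 4.49 in control and 0.906 in Mff-/- (1.42, mm10 chromosome 12, 110279230 to 110281097). The noncoding RNAs of the same domain, which come from the maternal chromosome, leaned the opposite way. Meg3 stood at 11.3 FPKM in Dnm1l-/-, 21.9 in Fis1-/-, 59.8 in control and 62.7 in Mff-/- (-0.89), and Rian at 9.24, 16.7, 45.9 and 41.0 (-0.79). Both noncoding RNAs were lowest in Dnm1l-/-, the library in which Dio3 was highest. Ipw, a noncoding RNA of the Prader-Willi domain outside the list, stood at 3.35, 0.193, 1.44 and 0.147 FPKM in Dnm1l-/-, Fis1-/-, control and Mff-/- (1.87). Its domain neighbour Snrpn, which encodes a splicing protein, stood at 60.4, 71.3, 66.5 and 81.8 FPKM (-0.24) and did not share that pattern. Nnat, the paternally expressed gene of neuronatin, stood at 6.21 FPKM in Dnm1l-/- and 14.2 in Fis1-/-, with control between them at 10.4 (-1.08). Mest stood at 0.909 FPKM in Dnm1l-/-, 2.61 in Fis1-/-, 27.2 in control and 25.1 in Mff-/- (-0.92), and Phlda2, which restrains placental growth, at 26.2, 13.6, 59.5 and 89.5 (0.89).

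Several genes known from neurons and secreted signals were among the 15 higher in Fis1-/-. Crmp1, a cytosolic phosphoprotein of axon guidance, stood at 1.89 FPKM in Dnm1l-/-, 6.62 in Fis1-/-, 18.4 in control and 13.6 in Mff-/- (-1.40). Ina, the neuronal intermediate filament alpha-internexin, stood at 8.38, 21.2, 20.5 and 11.5 FPKM in that order (-1.24). Both were lowest in Dnm1l-/-. Ntn1, the axon guidance ligand netrin 1, stood at 7.38, 16.6, 16.6 and 7.09 FPKM (-1.07), so that Dnm1l-/- resembled Mff-/- and Fis1-/- resembled control. Notum, the secreted enzyme that inactivates Wnt proteins, stood at 3.15, 8.24, 10.6 and 15.7 FPKM (-1.15). Foxi3, a forkhead factor of the embryonic ectoderm, stood at 0.609, 4.64, 2.38 and 2.28 FPKM (-1.81). Notum and Foxi3 too were lowest in Dnm1l-/-.

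On the list of 17 neural ectoderm genes, 8 were compared, all 8 were lower in Dnm1l-/-, and the median was -0.38. Crmp1 was the only one 2-fold apart, against 0.606% of all genes in either direction. Without a filter on level the median was -0.25. Tubb3, the neuronal beta tubulin, stood at 23.3 FPKM in Dnm1l-/-, 36.8 in Fis1-/-, 69.6 in control and 54.9 in Mff-/- (-0.64). Of 18 genes of the formative and primed state, through which naive cells pass towards differentiation, 16 were compared and 12 were lower in Dnm1l-/-, with a median of -0.29 and none 2-fold apart. Zic2 stood at 2.40, 4.68, 4.52 and 4.26 FPKM (-0.74) and Tcf15 at 6.74, 10.3, 40.7 and 84.8 (-0.55). Zic2 was low in Dnm1l-/- alone, and Tcf15 was low in both knockouts compared here.

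The other genes 2-fold higher in Fis1-/- were Slc27a2, a very-long-chain acyl-CoA synthetase of peroxisomes and the endoplasmic reticulum, Pdzd4, Tstd1, of the rhodanese domain family, and the uncharacterised 1700097N02Rik and 2900011O08Rik. Slc27a2 stood at 5.23 FPKM in Dnm1l-/-, 13.9 in Fis1-/-, 7.29 in control and 8.54 in Mff-/- (-1.26), and Pdzd4 at 7.02, 15.5, 15.5 and 18.8 (-1.04). Slc27a2 was high in Fis1-/-, whereas Pdzd4 was low in Dnm1l-/- and the same in Fis1-/- and control. Tstd1 stood at 2.07, 6.23, 2.03 and 2.66 FPKM (-1.24), the Fis1-/- library being the high one. The 2 uncharacterised genes differed by -1.25 and -1.04. The genes named from the 40 were chosen after their values were seen.

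**Figure D3:**
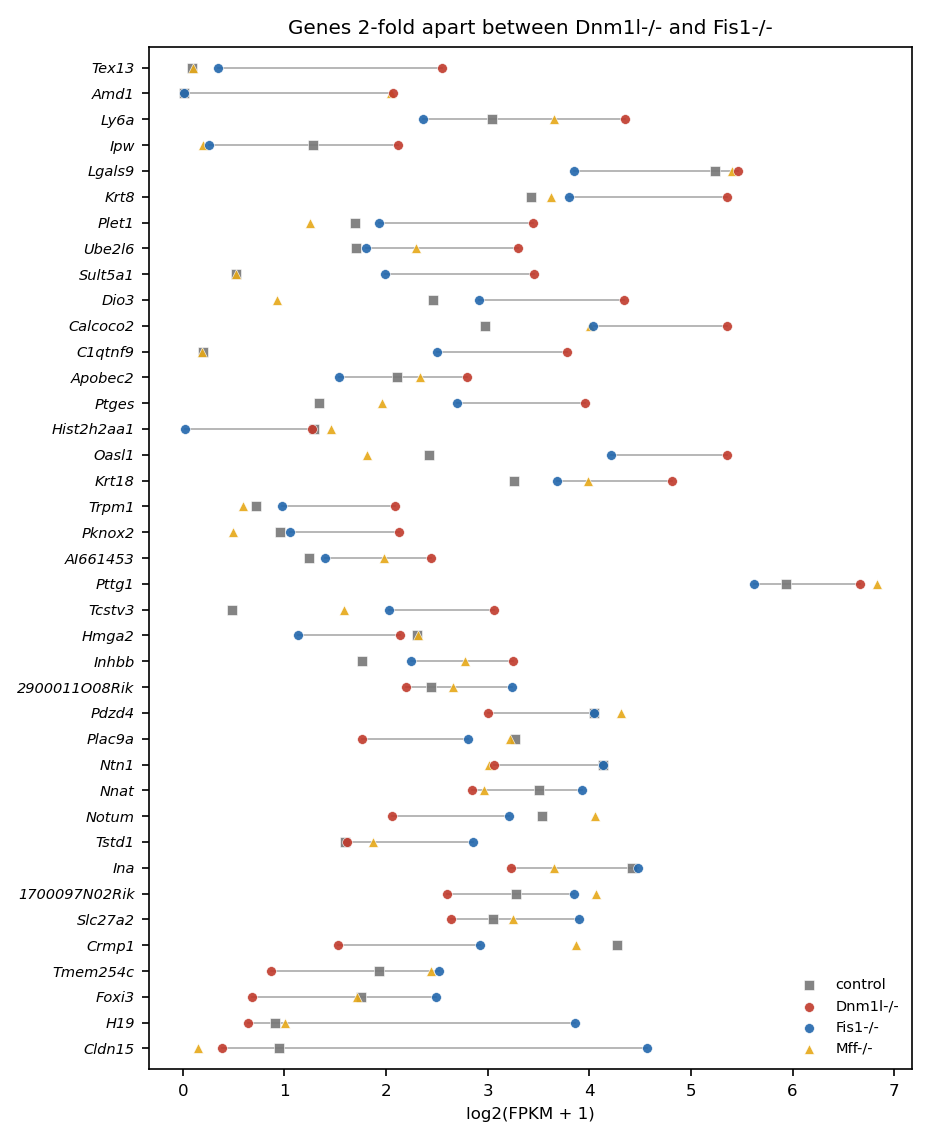
Level of 39 of the 40 genes of 250 bases or more that are 2-fold apart between Dnm1l-/- and Fis1-/-, as log2(FPKM + 1), with 1 symbol for each of the 4 libraries. Krt8 runs from 9.73 FPKM in control to 39.9 in Dnm1l-/-, and Cldn15 from 0.112 in Mff-/- to 22.7 in Fis1-/-.

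The Dnm1l-/- library more often stood by itself among these genes. In 14 of the 40 Dnm1l-/- was 2-fold or more above each of the other 3 libraries, and in 6 it was 2-fold or more below them. Against this, 2 (Cldn15 and H19) were 2-fold higher in Fis1-/- than in each of the others and 3 (Lgals9, Hist2h2aa1 and Hmga2) 2-fold lower. Tmem254c and Plac9a, of the 6, and Hist2h2aa1, of the 3, have near-identical copies. Their calls are uncertain, as described below, and were not taken out of these counts. In 31 of the 40 the Dnm1l-/- value lay farther from control than the Fis1-/- value, a count not set beside that over all genes. The level filter includes the libraries compared, which favours genes high in either. Tex13, Sult5a1, C1qtnf9, Trpm1 and Pknox2, all of the 14, passed it only through these libraries, as did Ipw, Cldn15 and H19. With a filter on control and Mff-/- levels alone, 32 of the 40 remained. The call sits on a continuum. A further 44 genes had a difference between 0.8 and 1 towards Dnm1l-/- and 15 towards Fis1-/-. The median of the mean level was 4.09 FPKM for the 25 genes and 8.73 FPKM for the 15, against 9.98 FPKM over all compared genes.

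Of 47 gene lists with compared members, 38 held no gene 2-fold apart, and the medians ran from -0.38 for neural ectoderm to 0.65 for the 2-cell-like state. Lists of mitochondrial division, respiration, fuel use and translation hardly separated the lines. In 12 such lists, with 295 genes compared, none was 2-fold apart and the differences lay between -0.69 and 0.77, the latter being Fis1 itself. Complex I of the respiratory chain had 31 of 37 genes above 0 with a median of 0.07. Fatty acid oxidation had 15 of 19 above 0 with a median of 0.16, and glycolysis 6 of 19 with a median of -0.04. Over all compared genes 49.5% lay above 0. Ldhb, a lactate dehydrogenase subunit, had the lowest value, at 240 FPKM in Dnm1l-/-, 388 in Fis1-/-, 712 in control and 149 in Mff-/- (-0.69). Cytosolic ribosomal proteins had 73 of 83 genes above 0, by small steps, with a median of 0.07. With libraries scaled to the mean total the counts were 47 of 83 (median 0.01) for the cytosolic ribosome and 23 of 37 (0.01) for complex I, and after correction for GC content and length 48 of 83 (0.02) and 22 of 37 (0.02).

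Genes of the integrated stress response, the programme run by Atf4, were slightly higher in Dnm1l-/-, with 32 of 38 above 0, a median of 0.19 and none 2-fold apart. Trib3, a pseudokinase induced by Atf4, stood at 7.43 FPKM in Dnm1l-/-, 3.52 in Fis1-/-, 42.0 in control and 47.4 in Mff-/- (0.90), and Nupr1, a stress-induced nuclear protein, at 32.5, 17.6, 80.4 and 213 (0.85). Pck2, the mitochondrial phosphoenolpyruvate carboxykinase, stood at 7.92, 4.8, 26.8 and 61.4 FPKM (0.62). In all 3, Fis1-/- was the lowest library and Dnm1l-/- the next. Basement membrane genes on the endoderm list were divided. Col4a1 stood at 8.45, 3.83, 6.08 and 2.06 FPKM in Dnm1l-/-, Fis1-/-, control and Mff-/- (0.97) and Sparc at 63.3, 37.9, 50.0 and 68.6 (0.73). Col4a2 differed by 0.79. The laminin genes Lama1, Lamb1 and Lamc1 differed by -0.08, -0.13 and 0.39. Of 19 endoderm genes, 7 were compared, with a median of 0.39, and without a filter on level the median was 0.03.

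**Figure D4:**
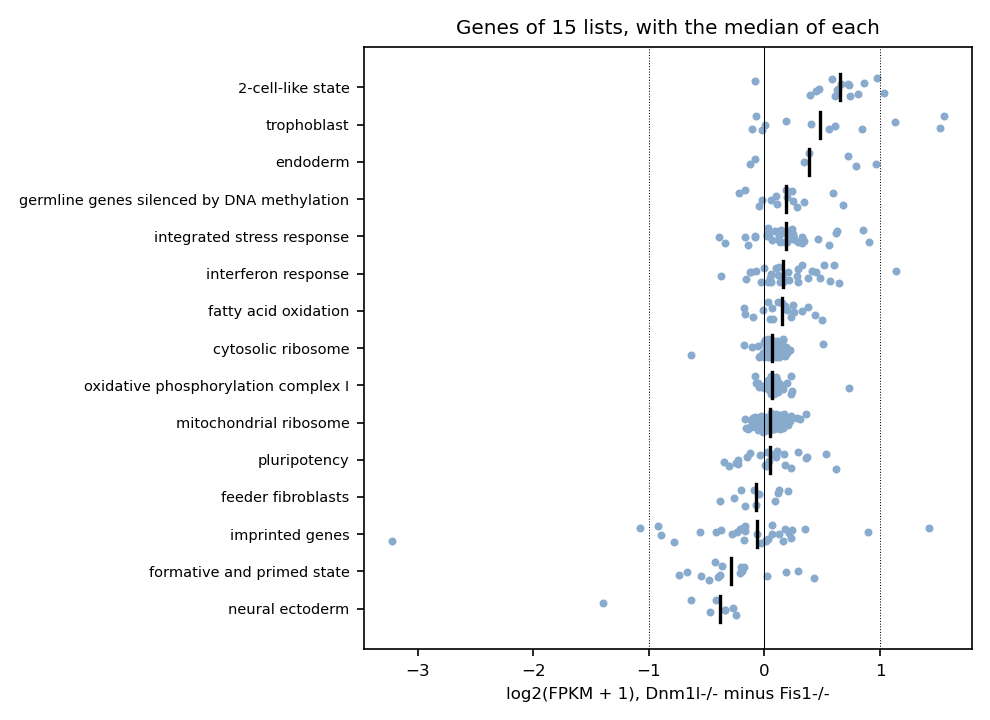
Log2 difference of each compared gene, Dnm1l-/- minus Fis1-/-, on 15 gene lists, with the median of each list marked and 1 library per genotype. The 2-cell-like list has its median at 0.65 and the neural ectoderm list at -0.38, while the mitochondrial lists sit close to 0.

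Markers of stem cells and feeders were close in the 2 libraries. The 24 pluripotency genes summed to 6164 FPKM in Dnm1l-/-, 5766 in Fis1-/-, 6511 in control and 9888 in Mff-/-, none was 2-fold apart between Dnm1l-/- and Fis1-/-, and the median was 0.05. Pou5f1, which encodes Oct4, stood at 913 FPKM in Dnm1l-/- and 808 in Fis1-/-, and Nanog at 437 and 389, so the labelled cell type had its defining markers. Of 20 feeder fibroblast genes, 11 were compared, none was 2-fold apart, and the median was -0.07. They summed to 353 FPKM in Dnm1l-/-, 380 in Fis1-/-, 400 in control and 371 in Mff-/-. Most of the sum came from Fn1, Vim, Ctgf and Timp1 (91.3, 90.5, 93.9 and 41.6 FPKM in Dnm1l-/-), so it says little of the other feeder genes. Col1a1 stood at 0.965 and 1.07 FPKM in Dnm1l-/- and Fis1-/-. The part of feeder RNA in the differences was not tested. No autosome and not the X chromosome stood apart, with medians between -0.03 and 0.02.

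The promoters of the genes higher in Dnm1l-/- held fewer CpG than those of all genes. In promoters of vertebrates CpG-rich sequence is mostly unmethylated, while CpG-poor promoters are more often methylated. A CpG count in the 250 bases before the start was available for 8650 compared genes, with a median of 16, and 21.8% held fewer than 10. For 19 of the 25 genes higher in Dnm1l-/- the median was 8 (1 to 23), and 11 of 19 (57.9%) held fewer than 10. For 9 of the 15 genes higher in Fis1-/- the median was 16 (3 to 25), and 2 (22.2%) held fewer than 10. Of the 19, Tex13, Sult5a1, C1qtnf9, Trpm1 and Ipw passed the level filter only through Dnm1l-/- and Fis1-/-. They held 11, 5, 2, 4 and 1 CpG in that order. The same holds for Cldn15, with 7 CpG, among the 9. Amd1, whose call is uncertain because of a near-identical copy, is also among the 19. Genes with a mean between 2 and 10 FPKM, whose level is nearer to that of the 19, had a median of 16 with 24.4% under 10. Genes that differed by 0.5 to 1 had a median of 11 on both sides, with 46.9% of 175 genes under 10 towards Dnm1l-/- and 42.4% of 85 genes towards Fis1-/-. Low CpG counts thus occurred on both sides among the smaller differences. The count was chosen with the 2-fold genes known and is given without a test.

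**Figure D5:**
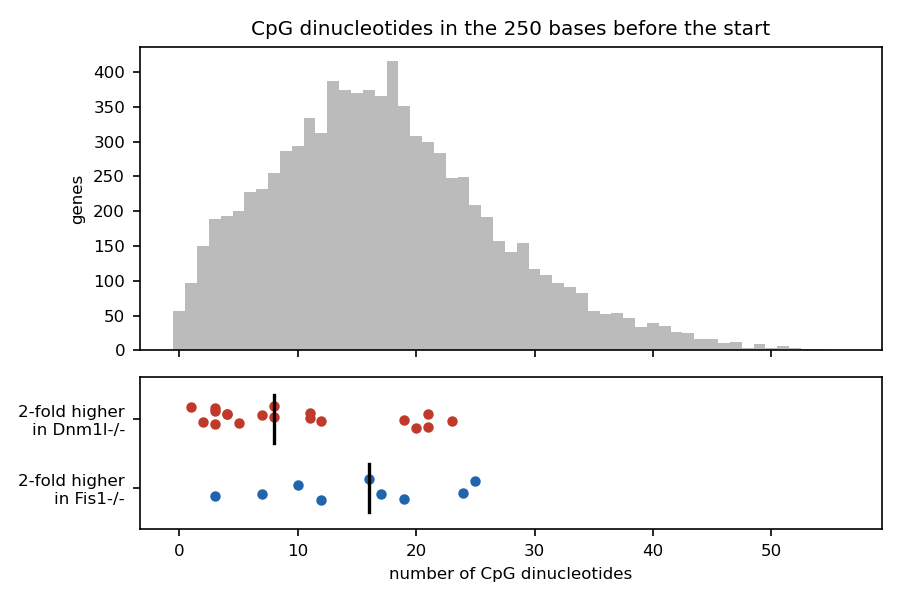
Number of CpG in the 250 bases before the start, as a histogram of the number of genes among all 8650, with the genes 2-fold higher in Dnm1l-/- or in Fis1-/- as points at their own counts below it and their medians as bars. The medians are 16 for all genes, 8 for the 19 genes higher in Dnm1l-/- and 16 for the 9 higher in Fis1-/-.

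Calls of 4 genes with near-identical copies are uncertain. Amd1, which encodes S-adenosylmethionine decarboxylase, stood at 3.19 FPKM in Dnm1l-/-, 0.00984 in Fis1-/-, 0.00934 in control and 3.15 in Mff-/- (2.05), but Amd1 and its copy Amd2 together stood at 76.8 in Dnm1l-/- and 87.7 in Fis1-/- (-0.19). The histone genes Hist2h2aa1 and Hist2h2aa2 together stood at 1.41 and 1.24 FPKM (0.11), against 1.25 for Hist2h2aa1 alone. Tmem254c differed by -1.65, but Tmem254a, Tmem254b and Tmem254c together by 0.07. Summing the copies thus removed these 3 differences. Plac9a differed by -1.04, and Plac9a with Plac9b, at 3.53 and 7.09 FPKM, by -0.84.

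The entries under 250 bases behaved unlike the rest. Of 60 compared, 27 (45.0%) were 2-fold apart, 14 higher in Dnm1l-/- and 13 in Fis1-/-, and 43 of the 60 were listed at 0 in at least 1 library, which held for none of the longer genes. In 21 of the 27 the lower of the 2 libraries was listed at 0. Snord49a was listed at 1912 FPKM in Dnm1l-/- and at 0 in the other 3 libraries, and Snord104 at 1060 FPKM in Dnm1l-/- and at 0 in the other 3. The hairpin entry Mir20a was listed at 39.1 FPKM in Fis1-/- and at 0 elsewhere. Snord96a was listed at 350 FPKM in Dnm1l-/-, 809 in Fis1-/- and 0 in control and Mff-/-. Most small nucleolar RNAs sit in introns of a host gene, and the 20 longer genes that contain such an entry did not move with it. Their log2 differences lay between -0.22 and 0.14. The gene around Snord49a, 2410006H16Rik, stood at 342 FPKM in Dnm1l-/- and 351 in Fis1-/- (-0.04), and Rpl13a, the ribosomal protein gene around Snord35a, at 2834 and 2856 (-0.01). A log2 difference against an entry listed at 0 is set by the pseudocount and is no fold change.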

How the data were processed

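RNA was sequenced from 4 lines of mouse embryonic stem cells, 1 library each. The authors deposited FPKM per transcript, with transcript length and position. The submitters' processing notes name build mm10, StringTie 1.3.3b, STAR 2.5.2b, R 3.6.1 and FastQC 0.11.5, without saying which made the table. Libraries were TruSeq, stranded per the series' design text only, and no source says whether quantification used strand.

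From the deposited FPKM of 33818 transcripts, values were summed per gene symbol. A symbol was missing for 565 transcripts, of which 552 took one from their gene ID or accession. Genes averaging at least 1 FPKM across the 4 libraries were kept, log2(FPKM + 1) was taken with a pseudocount of 1, and the Fis1-/- value was subtracted from the Dnm1l-/- value. With 1 library per group no test was possible, and 2-fold was used as a mark of size. Because FPKM are shares, an abundant RNA can shift the others. Fragments per library were estimated from values on transcripts of 3000 bases or more that were whole multiples, within 0.15, of 1 fragment. This held for 94.3% and 91.0% of the low values in Dnm1l-/- and Fis1-/-. Genes were named by rank of the difference (the top 20 in each direction, noncoding genes and genes of 1 library), and the 40 longer genes were then drawn on, 1 of which is not reported here. The genes compared and the lists were chosen with earlier results of these data known. Entries under 250 bases were separated, and the CpG counts added, after the data were seen. The arithmetic was tested on simulated data. Python 3.11.15, numpy 2.4.6, pandas 2.3.3, statsmodels 0.14.6 and matplotlib 3.10.9 were used.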

Additional observations from a re-analysis of the deposited data

Results flagged for a closer look

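In 24 of the 67 genes 2-fold apart, the control lay between, so that Dnm1l-/- and Fis1-/- stood on opposite sides of it. That count was not set beside the share over all compared genes. The difference was not tested, since each genotype has 1 library, and both sides are read against the same control. Higher in Dnm1l-/- and lower in Fis1-/- than control were Ly6a (log2 difference 1.99), Ipw (1.87), Lgals9 (1.61), Apobec2 (1.27) and Pttg1 (1.04). The reverse held for Cldn15 (-4.18), H19 (-3.22), Foxi3 (-1.81), Tmem254c (-1.65, uncertain because of near-identical copies), Slc27a2 (-1.26), 1700097N02Rik (-1.25), Ina (-1.24), Nnat (-1.08) and 2900011O08Rik (-1.04). Pdzd4 (-1.04) is counted with them, although its Fis1-/- and control levels were both 15.5 FPKM. Ina was nearly level as well, at 21.2 FPKM in Fis1-/- and 20.5 in control. H19 and Lgals9 lay near control on the Dnm1l-/- side, with log2 differences from control of -0.27 and 0.23. For such genes the opposite sides rest on small steps. The 15 genes listed so far are 250 bases or longer. The other 9 are small RNA entries, Mir682 (6.46), Mir6385 (5.80), Snora15 (5.60), Mir8112 (3.31), Mir684-1 (1.55), Snora81 (-1.11), Snord17 (-1.63), Mir692-1 (-1.81) and Snora16a (-4.68), of which several were listed at 0 in 1 of the 2 libraries, so that their size rests on the pseudocount.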

How the results depend on the processing

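None of the 40 longer genes changed direction in an alternative run that kept it. Summing near-identical copies, described above, was not among these runs. The count higher in Dnm1l-/- exceeded that in Fis1-/- in every run but that with a minimum mean of 5 FPKM, where they were equal. Small splits within lists could turn. The keratin list had 9 genes above 0 and 8 below, and 8 and 9 after correction for GC content and length. The count higher in Dnm1l-/- went from 39 to 63 with a pseudocount of 0.5 FPKM, to 22 with a minimum mean of 5 FPKM (22 in Fis1-/-), to 24 with coding transcripts only (13 in Fis1-/-, from 28) and to 25 without entries under 250 bases (15 in Fis1-/-), which was added after the values were known. The last 3 remove genes by construction. Both counts stayed within 1.5 times of the main ones under the other 8 settings planned and with a filter on control and Mff-/- levels alone, which was added later (26 and 24). Of the 40 longer genes, all 40 stayed 2-fold apart with a pseudocount of 0.5, 26 with a pseudocount of 2, and 36 when libraries were scaled to the mean total, where Hmga2, Inhbb, Pttg1 and Tcstv3 fell short. That scaling moved the median of all genes to -0.05. Counted once per list and alternative run, 590 list medians stayed close and 19 moved. No paired analysis was possible because each genotype has 1 library, and for the same reason no replicate could be left out. Across genes, the difference had a Spearman rho of 0.10 with GC content and -0.20 with transcript length, a description without a p-value. After correction for both, 36 and 29 genes were 2-fold apart. Depth limits low genes most, since a transcript of 2 kb at 1 FPKM rests on about 70.4 fragments in Dnm1l-/-, and for short entries the count behind a value is smaller.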

Other observations

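Several genes outside the groups above came close to the 2-fold mark or were abundant, and were chosen after their values were seen. Neat1, the noncoding RNA that scaffolds paraspeckles, stood at 32.7 FPKM in Dnm1l-/-, 19 in Fis1-/-, 18.9 in control and 28.1 in Mff-/- (0.75). Emb, which encodes embigin, a partner of monocarboxylate transporters, stood at 35.3, 61.0, 29.6 and 36.2 FPKM in that order (-0.77). Top2a, the topoisomerase of proliferating cells, stood at 102, 160, 78.6 and 71.4 FPKM (-0.65). Fis1-/- was the highest library for Emb and Top2a, and Neat1 was highest in Dnm1l-/-.

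Of 30 genes of the X-linked Rhox homeobox cluster, which is silenced by DNA methylation in somatic lineages, 4 were compared. Rhox5 stood at 779 FPKM in Dnm1l-/-, 764 in Fis1-/-, 76.8 in control and 228 in Mff-/- (0.03), and Rhox6 at 43.8, 30.1, 6.02 and 5.76 (0.53). The most abundant member thus did not separate Dnm1l-/- from Fis1-/-, while Rhox6 and Rhox9 (36.0 and 24.5 FPKM, 0.54) were higher in Dnm1l-/-. Among 39 germline genes of the same kind of silencing, 15 were compared, none was 2-fold apart and the median was 0.19. Tuba3a stood at 22.6, 13.7, 3.0 and 7.0 FPKM (0.68).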
